A study of Rattus norvegicus with 20 samples.

Results

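The genes described here encode proteins that join synapses from either side: neurexin 2 and neurexin 3 (*Nrxn2*, *Nrxn3*), neuroligin 1, 2 and 3 (*Nlgn1*, *Nlgn2*, *Nlgn3*), cerebellin 1 (*Cbln1*) and SynCAM1 (*Cadm1*). They were taken by symbol from a table of 23487 rat genes, which holds all 7 of them. All 7 also passed the filter on low values that kept 15802 genes for testing, although *Nrxn3* lay close to the floor of the measurement. Neurexins are receptors on the presynaptic membrane, and neuroligins are their best-known partners on the postsynaptic side. Cerebellin 1 is a secreted protein that, in the mouse cerebellum, links neurexins to the glutamate receptor GluD2, while SynCAM1 is an immunoglobulin-type adhesion molecule that binds SynCAMs on the opposing membrane. Pancreatic β cells release insulin with a secretory machinery much like that of a nerve terminal and express proteins of all of these families.

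The libraries are of mRNA from INS-1 832/13, a clone of a rat insulinoma line that secretes insulin in response to glucose. Of the 20 libraries, 4 come from cells that were not transfected and 4 from cells that received a negative control siRNA (si-Ctrl). The *Piezo1* siRNA pool was given to 4 (si-P1), the *Piezo2* pool to 4 (si-P2), and the last 4 had both pools (si-P1+2). *Piezo1* and *Piezo2* encode mechanosensitive cation channels, and the comparisons ask which transcripts differ when either or both are silenced. All cells grew in medium with 11.1 mM glucose. The siRNAs were used at 25 nM, applied again after 48 h, and the cells were kept for 48 h more. Whether 25 nM was the concentration of each or of both siRNAs in si-P1+2 is not given. Nothing says that the 4 libraries of a group came from separate cultures, so the p-values measure the spread between libraries, which may be technical.

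Each library held 16679934 to 56926609 reads, and values are normalized counts, that is reads divided by one scaling factor per library. *Piezo1* averaged 125 ± 13.2 normalized counts in si-P1 and 127 ± 15.4 in si-P1+2, against 313 ± 17.3 in si-Ctrl and 348 ± 35.7 in si-P2 (SD, n = 4 each). *Piezo2* was near the floor in every group, with means of 6.83 to 13.2, so its silencing is hard to judge here. One library stood apart from its group: si-Ctrl replicate 3 had a median correlation of 0.944 with the other si-Ctrl libraries, against 0.986 or more for each of the other 19. For 5 of the 7 genes its value lay outside those of all 19 others, being the highest for *Nrxn2* and the lowest for *Nlgn1*, *Nlgn2*, *Nlgn3* and *Cadm1*. Of 15 β-cell markers, 14 were in the table and all 14 had a mean of at least 50 normalized counts. Their sum ran from 614221 to 693227 in untransfected cells, 619266 to 956469 in si-Ctrl and 684717 to 850752 in si-P1. It ran from 689334 to 768268 in si-P2 and from 711096 to 796734 with both siRNAs. The last lay above untransfected cells without overlap but overlapped si-Ctrl, and its part in the results was not tested. The α-cell hormone gene *Gcg* averaged 2068, but the α-cell factor gene *Irx2* was at 0. Markers of fibroblasts, endothelium, immune cells, acinar cells and delta cells summed to at most 26.7 normalized counts in any library. The duct markers summed to 248.5 to 533, nearly all of it *Sox9* (mean 357), and overlapped between si-P1 and si-Ctrl. Of 6 neuronal markers, 5 were expressed, and their sum ran from 5487 to 6457 in untransfected cells, 5726 to 6116 in si-Ctrl, 5466 to 5673 in si-P1, 5687 to 6092 in si-P2, and 5503 to 5723 with both siRNAs. Glial markers summed to 1325 to 3149, nearly all of it *Mbp* (mean 2328), with *Gfap* at 0.155. *Slc32a1*, the vesicular GABA transporter gene that defines inhibitory neurons, averaged 0.0302. The neuronal sum was thus lower in si-P1 and si-P1+2 than in si-Ctrl but overlapped that of untransfected cells, and its part in the results was not tested. Its members did not move together. In si-P1 against si-Ctrl *Syn1* was lower, at −0.25 on the log2 scale (adjusted p = 0.0140, limma). *Rbfox3* (−0.09), *Tubb3* (−0.07), *Gad2* (0.22) and *Slc17a7* (0.21) did not pass this test.

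In si-P1, 3 of the 7 genes were called higher than in si-Ctrl: *Nlgn1*, *Cbln1* and *Cadm1*, by 1.04, 0.86 and 0.82 on the log2 scale. Of all 15802 genes tested, 7.07% were called higher and 13.3% were called in either direction in this comparison (limma, adjusted p under 0.05). The same 3 genes were those whose si-P1 and si-Ctrl libraries did not overlap, which held for 7.56% of all genes in this direction. *Nrxn2*, *Nlgn2*, *Nlgn3* and *Nrxn3* did not pass the test. None was called lower. The median log2 fold change of the 7 was 0.05, beside 0.02 for all genes tested. These are bulk libraries, so more transcript in every cell and more cells holding the transcript cannot be told apart. Whether these differences came from the loss of *Piezo1* or from another effect of the siRNA pool was not tested.

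**Figure D1:**
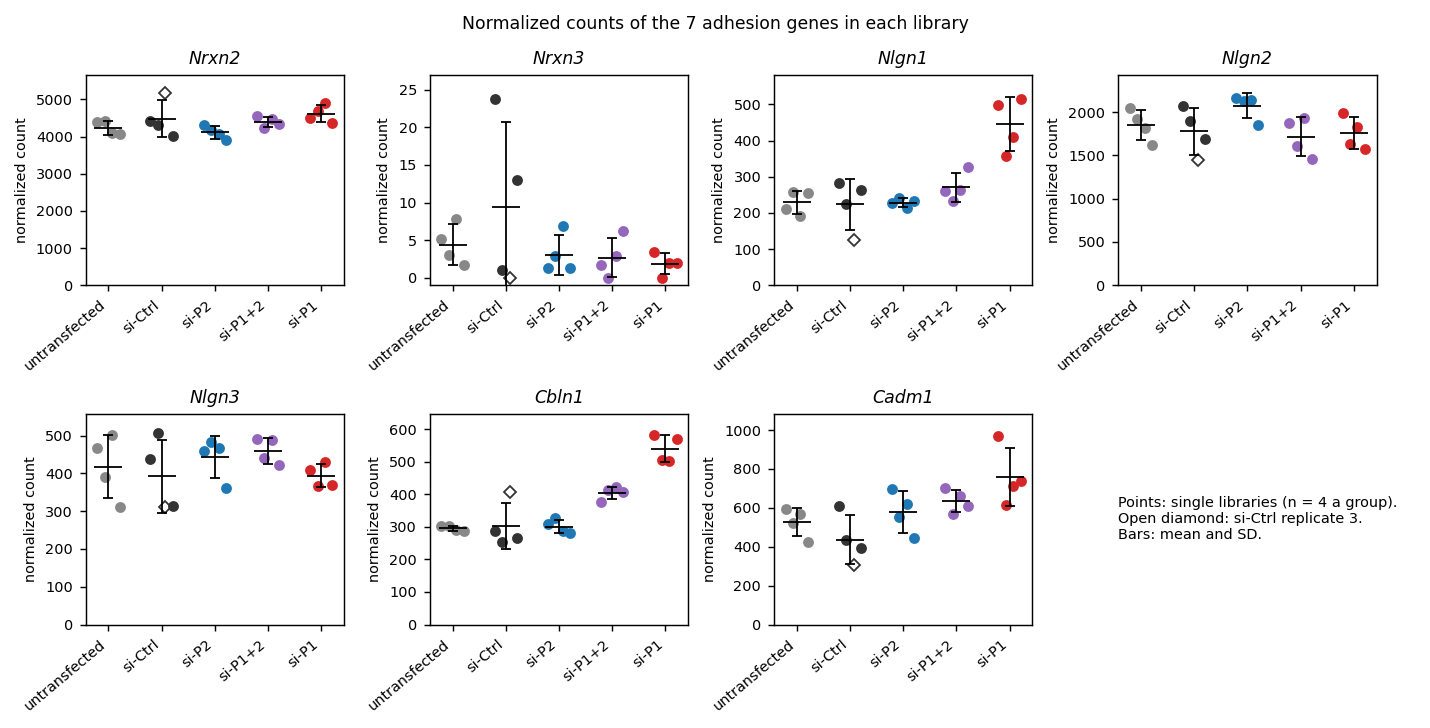
Normalized counts (linear axes) of the 7 genes in each of the 20 libraries, by group; points are libraries, bars give the mean and SD of 4 libraries, and the open diamond is si-Ctrl replicate 3. In si-P1 the libraries lie at 357 to 514 for *Nlgn1*, 503 to 582 for *Cbln1* and 613 to 970.2 for *Cadm1*, above all si-Ctrl libraries, while the groups overlap for *Nrxn2*, *Nlgn2* and *Nlgn3*.

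*Nrxn2* (ENSRNOG00000021103) encodes neurexin 2, a presynaptic receptor for neuroligins and cerebellins. Its normalized counts were 4426, 4302, 5187 and 4025 in the 4 si-Ctrl libraries and 4380.4, 4433, 4088 and 4079 in untransfected cells. In si-P1 they were 4501, 4683, 4906 and 4377, in si-P2 4314, 4174, 4081 and 3903, and with both siRNAs 4553, 4240.0, 4465 and 4353. The 5187 of si-Ctrl replicate 3 was the highest of all, and every other library lay between 3903 and 4906. The groups therefore overlapped in each comparison with si-Ctrl, with log2 fold changes of 0.05 (95% confidence interval −0.09 to 0.18) for si-P1, −0.12 (−0.25 to 0.02) for si-P2 and −0.02 (−0.16 to 0.12) for both siRNAs. Their adjusted p-values were 0.711, 0.305 and 0.915 (limma), and the standard error of 0.07 was the smallest among the 7 genes. The si-P1 and si-P2 libraries did not overlap, a comparison taken up further on.

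*Nrxn3* (ENSRNOG00000047574), the neurexin 3 gene, was barely measured. Its 20 libraries held 0 to 18 reads each, and 3 of them held 0. The si-Ctrl libraries held 16, 1, 0 and 18 reads, the si-P1 libraries 4, 0, 1 and 3, the si-P2 libraries 2, 3, 7 and 1, the si-P1+2 libraries 3, 0, 3 and 8, and the untransfected libraries 3, 5, 7 and 2. All groups overlapped and no comparison passed the test. A difference in *Nrxn3* was not detectable at this depth.

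*Nlgn1* (ENSRNOG00000032576) encodes neuroligin 1, the family member best known from excitatory synapses. The si-Ctrl libraries held 282, 224, 126 and 262 normalized counts and the untransfected libraries 211, 258, 193 and 256. The si-P1 libraries held 499.6, 357, 411 and 514, so that the lowest of them was above the highest of the other 16. The si-P2 libraries held 228, 241, 212 and 233 and the si-P1+2 libraries 260.0, 234, 264 and 327. The mean in si-P1 was 446 ± 74.3 against 223 ± 69.6 in si-Ctrl (SD, n = 4 each), a ratio of 1.99. The log2 fold change was 1.04 (standard error 0.19, adjusted p = 0.00119, limma). Without si-Ctrl replicate 3, the lowest library of all, it was 0.79 (adjusted p = 0.000411), and against untransfected cells in place of si-Ctrl 0.95 (adjusted p = 0.00193). With the 8 libraries of these groups fitted alone the adjusted p was 0.0528. In the order of the group means, si-P1 came first and did not overlap the next group, si-P1+2, while each further neighbour in the order (untransfected 229, si-P2 229, si-Ctrl 223) overlapped the one before it.

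*Nlgn2* (ENSRNOG00000015430) encodes neuroligin 2, the member found at inhibitory synapses. The si-Ctrl libraries held 2069.7, 1902, 1449 and 1687 normalized counts, the si-P1 libraries 1991, 1632, 1830.1 and 1579 and the si-P1+2 libraries 1875, 1605, 1928 and 1459. These groups lay on top of each other and of the untransfected libraries (2048, 1915, 1818 and 1624). Its log2 fold change was −0.01 in si-P1 (95% confidence interval −0.24 to 0.23, adjusted p = 0.973, limma) and −0.05 in si-P1+2 (−0.28 to 0.19, adjusted p = 0.886). In si-P2 the libraries held 2158, 2129.8, 2141 and 1855, the first 3 of them above all other 17 libraries. The fold change there was 0.23 (95% confidence interval −0.0035 to 0.47, adjusted p = 0.250, limma), which did not pass the test.

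*Nlgn3* (ENSRNOG00000003812) encodes neuroligin 3, which occurs at excitatory and at inhibitory synapses. Its libraries ranged from 311 to 506 normalized counts in si-Ctrl, from 368 to 430.4 in si-P1, from 360.2 to 484 in si-P2, from 421 to 490.4 in si-P1+2 and from 312 to 501 in untransfected cells. All 5 groups overlapped. Against si-Ctrl the log2 fold change was 0.04 for si-P1, 0.20 for si-P2 and 0.26 for both siRNAs, with adjusted p-values of 0.917, 0.478 and 0.441 (limma). The 95% confidence interval in si-P1 was −0.29 to 0.37.

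*Nlgn1* passed the test in si-P1 while its paralogs *Nlgn2* and *Nlgn3* did not, and the part of their promoters in this was not tested. The promoters of the 3 neuroligin genes are shown because RefSeq matched these 3 of the 7 genes. Each is 300 bases from 250 before to 50 after the start site that RefSeq gives on build GRCr8, written 5′ to 3′ along the gene, on chr2:110930627-110930926 (minus strand) for *Nlgn1*, chr10:55056529-55056828 (minus strand) for *Nlgn2* and chrX:70469228-70469527 (plus strand) for *Nlgn3*. Capitals mark every match, on either strand, to any of 8 motifs: the TATA box TATAAA, the CCAAT box CCAAT, the GC box GGGCGG, the cAMP response element TGACGTCA, the AP-1 site TGANTCA, the TEAD site GGAATG, the homeobox core TAATTA and the E-box CANNTG.
Nlgn1: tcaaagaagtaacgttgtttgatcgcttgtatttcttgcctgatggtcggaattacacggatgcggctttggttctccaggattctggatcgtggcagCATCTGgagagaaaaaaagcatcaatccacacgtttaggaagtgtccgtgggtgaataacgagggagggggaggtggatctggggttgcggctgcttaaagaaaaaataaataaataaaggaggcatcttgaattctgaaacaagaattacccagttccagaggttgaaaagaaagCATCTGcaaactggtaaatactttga
Nlgn2: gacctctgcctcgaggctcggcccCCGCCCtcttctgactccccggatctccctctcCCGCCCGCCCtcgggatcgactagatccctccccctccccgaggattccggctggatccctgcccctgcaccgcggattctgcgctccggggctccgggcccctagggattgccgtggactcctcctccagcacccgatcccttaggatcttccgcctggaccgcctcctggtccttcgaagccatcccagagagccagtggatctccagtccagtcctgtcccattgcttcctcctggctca
Nlgn3: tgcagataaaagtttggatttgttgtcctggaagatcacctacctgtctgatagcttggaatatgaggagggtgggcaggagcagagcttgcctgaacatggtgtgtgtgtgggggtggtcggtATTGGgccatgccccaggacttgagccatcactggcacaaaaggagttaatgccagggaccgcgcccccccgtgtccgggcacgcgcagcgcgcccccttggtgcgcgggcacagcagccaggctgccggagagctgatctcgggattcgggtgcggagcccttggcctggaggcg
The *Nlgn1* window was 43.3% G or C with 10 CpG dinucleotides, and its capitals are 2 E-boxes, at −152 and 25 from the start site. The *Nlgn2* window was 67.3% G or C with 20 CpG dinucleotides, and its capitals are 3 GC boxes, at −226, −193 and −189, the last pair overlapping. The *Nlgn3* window was 61.7% G or C with 16 CpG dinucleotides, and its capitals are 1 CCAAT box in reverse, at −126. Over 33469 RefSeq promoters of this length the median was 51.7% G or C with 7 CpG dinucleotides. *Nlgn1* lay below and both paralogs above this G and C share, while all 3 windows held more CpG dinucleotides than the median. E-boxes were in 72.1% of these promoters, GC boxes in 33.1% and CCAAT boxes in 37.5%. The other 5 motifs, found in 14.2%, 1.83%, 7.33%, 14.2% and 5.36% in the order given, had no match in the 3 windows. These matches describe the letters and were not measured as binding sites.

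*Cbln1* (ENSRNOG00000000010) encodes the secreted ligand cerebellin 1. Its si-Ctrl libraries held 287, 252, 406 and 265 normalized counts, its untransfected libraries 302, 303, 291 and 289 and its si-P2 libraries 308, 327, 288 and 281. Apart from the 406 of si-Ctrl replicate 3, these libraries lay between 252 and 327. The si-P1+2 libraries held 377, 413, 422 and 406 and the si-P1 libraries 582, 507, 503 and 569. Apart from that si-Ctrl library, si-P1+2 lay between si-P1 and the other groups without overlap. The mean was 540.2 ± 41.3 in si-P1, 404 ± 19.5 in si-P1+2, 302 ± 70.5 in si-Ctrl, 301 ± 20.7 in si-P2 and 296 ± 7.33 in untransfected cells (SD, n = 4 each). The log2 fold change of si-P1 over si-Ctrl was 0.86 (standard error 0.11, adjusted p = 5.20e-05, limma), and it was 1.01 without si-Ctrl replicate 3 (adjusted p = 1.54e-07). This call was the only one of the 3 in si-P1 to hold in all 21 alternative settings, with adjusted p-values from 4.02e-11 to 0.0195.

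*Cadm1* (ENSRNOG00000018778) encodes SynCAM1, which unlike the others does not act through neurexins. The si-Ctrl libraries held 607, 436, 306 and 393 normalized counts and the untransfected libraries 594, 521, 566 and 426. The si-P1 libraries held 970.2, 613, 714 and 739, the si-P2 libraries 697, 553, 620.0 and 447, and the si-P1+2 libraries 702, 569.5, 662 and 609. The lowest si-P1 library, 613, was only just above the highest si-Ctrl library, 607, and si-P1 overlapped si-P2 and si-P1+2. The log2 fold change of si-P1 over si-Ctrl was 0.82 (standard error 0.18, adjusted p = 0.00428, limma), from means of 759 ± 151 and 436 ± 127 (SD, n = 4 each). It was 0.67 without si-Ctrl replicate 3 (adjusted p = 0.00684). Against untransfected cells it was 0.52 (adjusted p = 0.0530), and with only the 8 libraries of these groups in the fit the adjusted p was 0.0678, so the call depended on the controls and on the libraries in the fit.

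**Figure D2:**
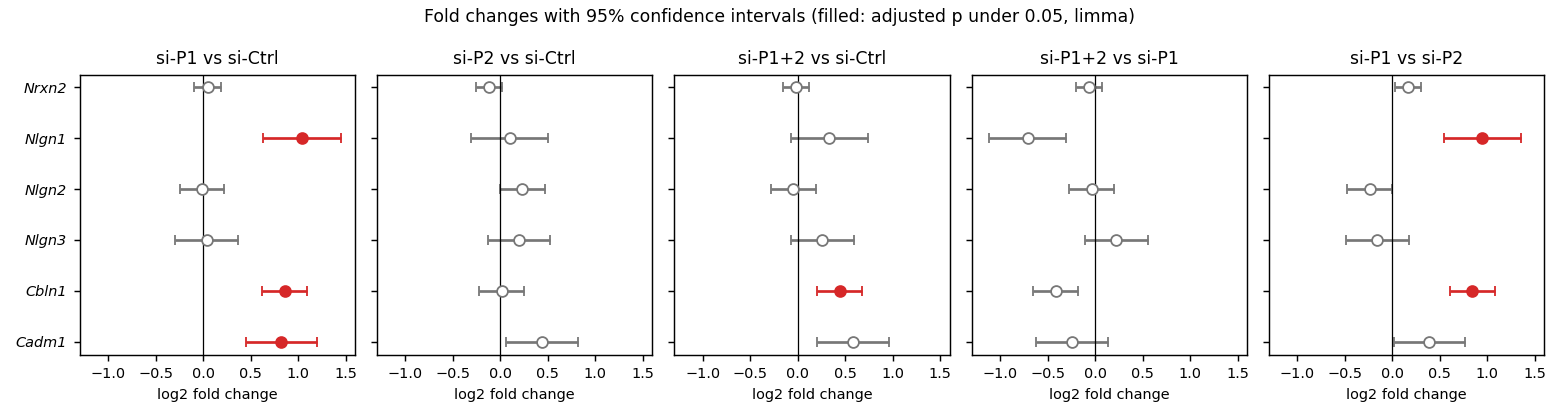
Log2 fold changes (x axis) of 6 genes in 5 comparisons from limma, with 95% confidence intervals; filled red points have an adjusted p under 0.05, and *Nrxn3* is left out because it lies near the floor. *Nlgn1*, *Cbln1* and *Cadm1* are filled in si-P1 vs si-Ctrl, none in si-P2 vs si-Ctrl, *Cbln1* at 0.44 in si-P1+2 vs si-Ctrl, and *Nlgn1* and *Cbln1* in si-P1 vs si-P2.

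The *Piezo2* siRNA alone called none of the 7 genes against si-Ctrl, where 2.08% of all genes were called (limma). At an unadjusted p under 0.05 (limma) there was 1, *Cadm1*, beside 3226 of all 15802 genes tested. After adjustment edgeR and DESeq2 called 0 of the 7. No member had groups that did not overlap, as 8.61% of all genes did. The log2 fold changes were 0.02 for *Cbln1* (95% confidence interval −0.22 to 0.25), 0.10 for *Nlgn1* (−0.31 to 0.50) and 0.44 for *Cadm1* (0.06 to 0.81, adjusted p = 0.194, limma). Without si-Ctrl replicate 1, the highest si-Ctrl library for *Cadm1*, that gene was at 0.61 and passed (adjusted p = 0.0449), and without si-Ctrl replicate 3 it was at 0.28 (adjusted p = 0.445). The transfection itself, si-Ctrl against untransfected cells, called 0 of the 7. Of them 0 had an unadjusted p under 0.05 (limma), beside 1569 of all 15802 genes tested. In that comparison 0.0886% of all genes were called, and edgeR and DESeq2 called 0 of the 7 as well.

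With both siRNAs *Cbln1* was the 1 gene of the 7 called, where 2.41% of all genes were called higher and 4.76% in either direction. Its log2 fold change over si-Ctrl was 0.44 (standard error 0.11, adjusted p = 0.0274, limma). *Cadm1* was at 0.58 (adjusted p = 0.0717), *Nlgn1* at 0.33 (adjusted p = 0.416), *Nlgn3* at 0.26, *Nlgn2* at −0.05 and *Nrxn2* at −0.02. No member was without overlap between the groups, as 9.08% of all genes were, and for *Cbln1* the overlap was that of si-Ctrl replicate 3. Without that library the *Cbln1* fold change was 0.59 (adjusted p = 7.90e-05). The call was lost when si-Ctrl replicate 1, 2 or 4 was left out (adjusted p = 0.0535, 0.0878 and 0.0919) or si-P1+2 replicate 2, 3 or 4 (0.0715, 0.0870 and 0.0703). *Cadm1* in turn passed without si-Ctrl replicate 1 (0.76, adjusted p = 0.0128). The 4 si-P1+2 libraries, at 377 to 422, all lay above the untransfected libraries for *Cbln1*, and the fold change against those was 0.45 (adjusted p = 0.0178).

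**Figure D3:**
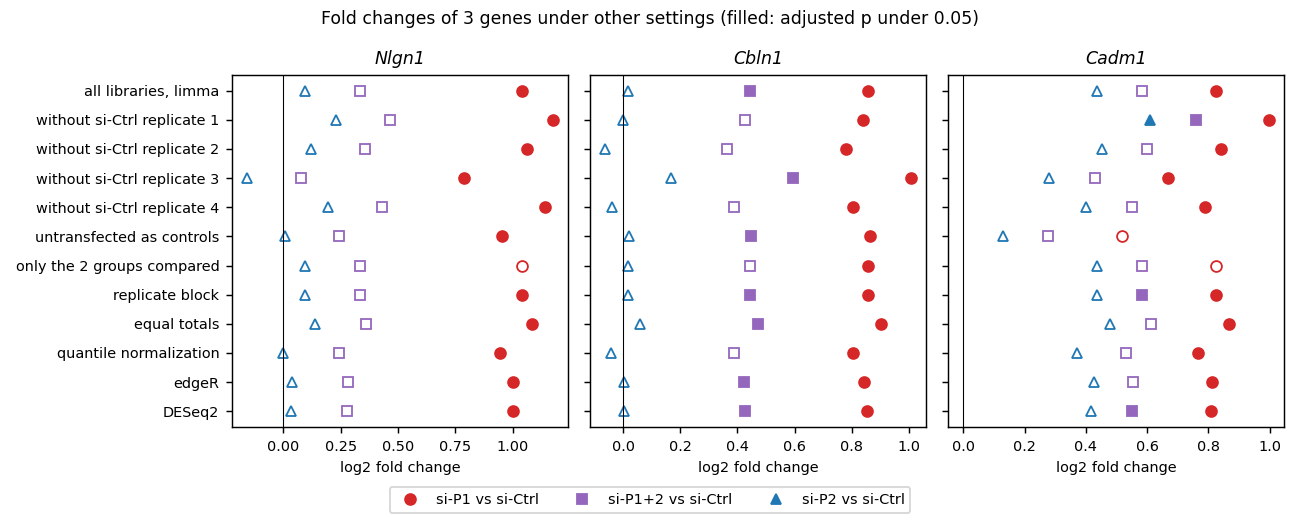
Log2 fold changes over controls (x axis) of *Nlgn1*, *Cbln1* and *Cadm1* in si-P1 (circles), si-P1+2 (squares) and si-P2 (triangles) under 12 settings named at the left; filled symbols have an adjusted p under 0.05. The si-P1 values run from 0.79 to 1.18 for *Nlgn1*, from 0.78 to 1.01 for *Cbln1* and from 0.52 to 1.00 for *Cadm1*.

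*Nlgn1* and *Cbln1* were lower with both siRNAs than with the *Piezo1* siRNA alone, although *Piezo1* was at 127 and 125 normalized counts in these groups. The log2 difference, si-P1+2 against si-P1, was −0.71 (standard error 0.19) for *Nlgn1* and −0.41 (standard error 0.11) for *Cbln1*. These were the 2 members whose groups did not overlap, which held for 3.2% of all genes in this direction. Neither passed the adjustment over all genes, with an adjusted p of 0.335 for both in limma, where 0.0443% of all genes were called. The 2 members had an unadjusted p under 0.05, as did 932 of all 15802 genes tested (limma). DESeq2 on the recovered reads called both (adjusted p = 0.0243 and 0.0420), beside 0.392% of all genes, while edgeR called 0 and limma with the replicate number as a block gave 0.0704 and 0.132. *Cadm1* differed by −0.24 (95% confidence interval −0.62 to 0.14) and its groups overlapped. The interaction of the siRNAs, the effect of adding the *Piezo2* siRNA in the presence of the *Piezo1* siRNA minus its effect alone, was −0.81 for *Nlgn1*, −0.68 for *Cadm1* and −0.43 for *Cbln1*. All 3 had an unadjusted p under 0.05, as did 1540 of all 15802 genes tested (limma). Their adjusted p was 0.386, 0.418 and 0.413 (limma), so 0 of the 7 were called, beside 0.00633% of all genes. Both edgeR and DESeq2 called 0 of the 7 too. Without si-Ctrl replicate 3, *Cbln1* was at −0.58 and passed (adjusted p = 0.0415). How far the siRNA dose in si-P1+2 differed from that in si-P1 is not given, and its part was not tested.

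The direct comparison of the single knockdowns takes its fold changes without si-Ctrl. Its standard errors and p-values come from the fit of all 20 libraries, si-Ctrl included. Here *Cbln1* was higher in si-P1 than in si-P2 by 0.84 (standard error 0.11, adjusted p = 5.91e-05, limma) and *Nlgn1* by 0.95 (standard error 0.19, adjusted p = 0.00258), 2 of the 7 genes where 8.22% of all genes were called higher and 14.7% in either direction. *Nrxn2* differed by 0.16 (95% confidence interval 0.03 to 0.30, adjusted p = 0.103), *Cadm1* by 0.39 (0.01 to 0.77, adjusted p = 0.166) and *Nlgn2* by −0.24 (−0.47 to −0.01, adjusted p = 0.169). The groups of *Nrxn2*, *Nlgn1* and *Cbln1* did not overlap, as for 13.5% of all genes in this direction. With the replicate number as a block, 5 of the 7 were called, since *Nrxn2* (adjusted p = 0.0438), *Cadm1* (0.0436) and *Nlgn2*, which was lower in si-P1 (0.0461), then passed. Under the block, 13% of all genes were called higher and 10.5% lower, and without it 6.49% were called lower. The summed glial markers also differed between these groups without overlap, at 1864 to 2368 normalized counts in si-P1 and 2842 to 3149 in si-P2, and their part in the results was not tested. *Cbln1* and *Nlgn1* stayed called in all 20 alternative settings of this comparison.

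A further 5 lists of genes around these proteins were counted in the same fit. The wider neurexin, neuroligin, cerebellin and SynCAM families had 13 of 14 genes tested. Of these, 4 were higher in si-P1 and 0 lower, beside 7.07% and 6.28% of all genes. Only 1 of these 4, *Cadm3*, was not among the 7 genes. It encodes SynCAM3 and was at 0.31 (adjusted p = 0.0313, limma), with means of 3274 ± 203 normalized counts in si-P1 and 2639 ± 275 in si-Ctrl. It was named after its value had been seen. *Cadm4* (0.22, adjusted p = 0.175) and *Cadm2* (0.49, adjusted p = 0.349) did not pass. *Cbln4* was at 0 in all libraries. The median of the list was 0.24 in si-P1, beside 0.02 for all genes, and 0.02 in si-P2 and 0.25 in si-P1+2. In si-P2 and si-P1+2, 0 and 1 genes of the list were called, beside 2.08% and 4.76% of all genes.

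Other ligands of neurexins and their partners made up the next list. Of 30 listed genes 24 were tested, and 4 were higher and 0 lower in si-P1, beside 7.07% and 6.28% of all genes. The list median was 0.24. *Nxph3*, a secreted ligand of α-neurexins, was at 0.95 (adjusted p = 0.00106, limma), from 42.5 ± 11.5 normalized counts in si-Ctrl to 81.4 ± 14.5 in si-P1. *Igsf21*, an adhesion molecule that binds neurexin 2, was at 0.65 (adjusted p = 0.000922), and *Clstn2*, a calsyntenin, at 0.59 (adjusted p = 0.0471). The fourth was *Clstn3*, a calsyntenin that binds α-neurexins, at 0.56 (adjusted p = 0.00234), named after its value had been seen. With both siRNAs the genes called were *Nxph3* (0.70, adjusted p = 0.0226) and *Igsf21* (0.48, adjusted p = 0.0212), where 2.41% of all genes were called higher. In si-P2 limma called 0 genes of the list, beside 2.08% of all genes. DESeq2 called 1, beside 820 of all 15802 genes, and edgeR 0. Without si-Ctrl replicate 3 *Clstn2* was at 0.34 and did not pass (adjusted p = 0.0816), while the list then held 6 genes higher and 1 lower, beside 11.8% and 12.4% of all genes. The *Clstn2* call was lost in 11 of 21 alternatives, also without si-Ctrl replicate 4 (adjusted p = 0.0961) or si-P1 replicate 1, 3 or 4 (0.128, 0.106 and 0.0787). In si-P1+2 the *Nxph3* call was lost without si-Ctrl replicate 1 or 4 or si-P1+2 replicate 2 or 3 (0.0502 to 0.0711). That of *Igsf21* was lost without si-Ctrl replicate 1, 2 or 4 or si-P1+2 replicate 1 or 2 (0.0525 to 0.0717). With the replicate number as a block 8 were higher and 0 lower in si-P1, beside 11.2% and 10.3% of all genes. With untransfected cells as controls *Igsf21* (0.34, adjusted p = 0.0526) and *Clstn2* (0.35, adjusted p = 0.229) did not pass in si-P1. Nor did *Igsf21* and *Nxph3* in si-P1+2 (adjusted p = 0.460 and 0.0856).

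The intracellular scaffolds that hold neurexins and neuroligins in place gave counts near the background of all genes. Of 40 listed genes 37 were tested, and 1 was higher and 2 were lower in si-P1, beside 7.07% and 6.28% of all genes. *Mpp2*, a membrane-associated guanylate kinase, was at 0.34 in si-P1 (adjusted p = 0.0444, limma) and at 0.55 in si-P2 (adjusted p = 0.0119), where 0.88% of all genes were called higher. Without si-Ctrl replicate 3 its si-P1 value was 0.19 (adjusted p = 0.0456), and against untransfected cells it did not pass in si-P1 (0.09, adjusted p = 0.626) or in si-P2 (0.30, adjusted p = 0.240). *Apba3*, an adaptor of the Mint family, was at −0.30 (adjusted p = 0.00602) and *Dlgap4*, a postsynaptic density protein, at −0.16 (adjusted p = 0.0446). The *Mpp2* call in si-P1 was lost in 11 of 21 alternatives, among them when si-Ctrl replicate 4 or a single library of si-P1 was left out (adjusted p = 0.0622 to 0.124), and its si-P2 call without si-P2 replicate 3 (0.0541). The *Dlgap4* call was lost in 9 of 21, among them when si-Ctrl replicate 2 or a single library of si-P1 was left out (adjusted p = 0.0513 to 0.154). The list without si-Ctrl replicate 3 held 2 higher and 8 lower genes in si-P1, where 11.8% and 12.4% of all genes were called.

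Among 50 other synaptic adhesion molecules, 45 were tested. Of these, 6 were higher and 1 lower in si-P1, beside 7.07% and 6.28% of all genes. *Slitrk6*, a leucine-rich-repeat membrane protein, was at 1.13 (standard error 0.12, adjusted p = 6.70e-06, limma), rising from 120 ± 20.4 to 262 ± 26.9 normalized counts. In si-P1+2 it was at 0.72 (adjusted p = 0.00174), again between si-Ctrl and si-P1. *Adam23*, a membrane protein that binds LGI proteins, was at 0.88 (adjusted p = 0.0134), but its si-Ctrl libraries ran from 576 to 1733 and without si-Ctrl replicate 3 the value was 0.51 (adjusted p = 0.000504). *Sdk2*, an immunoglobulin-type adhesion molecule known from the retina, was lower, at −0.62 in si-P1 (adjusted p = 0.000117) and −0.49 in si-P1+2 (adjusted p = 0.00298), where 2.35% of all genes were called lower. In si-P2 the 1 gene called was *Cdh2*, the N-cadherin gene, at −0.33 (adjusted p = 0.00557), where 1.2% of all genes were called lower. With untransfected cells as controls it was at −0.14 (adjusted p = 0.355), and *Adam23* in si-P1 at 0.58 (adjusted p = 0.0854). With the replicate number as a block 8 were higher and 3 lower in si-P1, beside 11.2% and 10.3% of all genes. Without si-Ctrl replicate 3 the counts were 4 and 5, beside 11.8% and 12.4% of all genes.

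Genes that splice neurexin transcripts or shed neurexins and neuroligins from the membrane were the last list. Of 27 listed genes 24 were tested, and 4 were higher and 1 lower in si-P1, beside 7.07% and 6.28% of all genes. *Elavl4*, a neuronal RNA-binding protein, was at 1.06 (standard error 0.15, adjusted p = 9.95e-05, limma), rising from 818 ± 169 to 1690.2 ± 250 normalized counts. *Adam10*, a protease that sheds neurexins and neuroligin 1, was at 0.67 (adjusted p = 0.00962), and *Ptbp2*, a neuronal repressor of splicing, at 0.52 (adjusted p = 0.0305). Without si-Ctrl replicate 3 *Adam10* was at 0.41 (adjusted p = 0.000428) and *Ptbp2* at 0.32 (0.0448), and against untransfected cells *Ptbp2* did not pass (0.38, adjusted p = 0.0995). In si-P1+2 *Adam10* was at 0.59 (adjusted p = 0.0439), at 0.33 without that library and at 0.50 against untransfected cells, where it did not pass (adjusted p = 0.0676), and *Adam17*, a protease of the same family, was at 0.27 (adjusted p = 0.0213). *Adam17* was also the fourth gene higher in si-P1, at 0.38 (adjusted p = 0.000835), where it was named after its value had been seen. The *Ptbp2* call was lost without si-P1 replicate 2 or 4 (adjusted p = 0.0790 and 0.0891). In si-P1+2 that of *Adam17* was lost without si-Ctrl replicate 4 or si-P1+2 replicate 3 (0.0638 and 0.0972), and that of *Adam10* without si-Ctrl replicate 4 or any one si-P1+2 library (0.0522 to 0.123). In si-P2 the count was 0 (0 also in edgeR and DESeq2). With the replicate number as a block 7 were higher and 1 lower in si-P1, beside 11.2% and 10.3% of all genes. Without si-Ctrl replicate 3 it was 6 and 3, beside 11.8% and 12.4% of all genes. Fitted on the 8 libraries of si-P1 and si-Ctrl alone, the 5 lists held 1, 1, 0, 3 and 1 called genes in si-P1, in the order described. In that fit 593 of all 15802 genes were called.

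**Figure D4:**
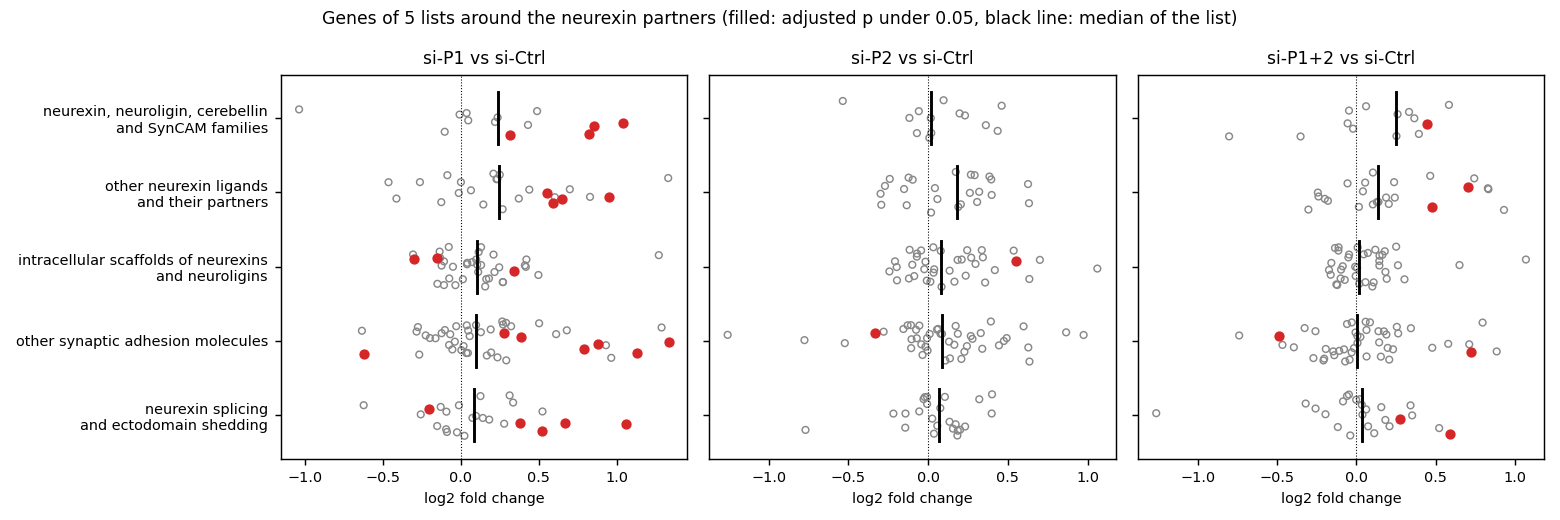
Log2 fold changes over si-Ctrl (x axis) of the tested genes of 5 lists, 1 panel per siRNA; filled red points have an adjusted p under 0.05 (limma), vertical black bars are list medians, and vertical jitter carries no information. In si-P1 the medians run from 0.09 for splicing and shedding to 0.24 for neurexin ligands, beside 0.02 for all genes.

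The genes that followed each member most closely over the 20 libraries were ranked by the Pearson correlation of log2 values, as a description over libraries that share treatment groups. For *Nlgn1* they were *Elavl2* (0.92), *Wdhd1* (0.91) and *Ube4b* (0.91), for *Cbln1* *RT1-CE5*, *Ifi35* and *Rcn3* (0.94 each), and for *Cadm1* *Ermp1* (0.96), *Pcdhb4* (0.94) and *Agrn* (0.93). *Agrn* encodes agrin, an organizer of the neuromuscular synapse, and *Pcdhb4* a protocadherin. For *Nlgn2* they were *Rimbp2* (0.94), *Madd* (0.93) and *Akap13* (0.93), of which *Rimbp2* encodes a protein of the presynaptic active zone. *Nlgn3* went with *Kif13a* (0.84) and *P4ha1* (0.82), and *Nrxn2* with *Them6* (0.90), *Vstm2l* (0.90) and *Evl* (0.89). Without si-Ctrl replicate 3 the first ranks changed, to *Rbmx2* for *Nlgn1* (0.92), *Glt8d1* for *Cbln1* (0.97) and *Matn2* for *Cadm1* (0.95).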

How the data were processed

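Libraries were made with a stranded poly(A) kit and sequenced by the authors on a NextSeq instrument. Per the labels and the study's methods, the authors checked reads with FastQC (0.11.8) and MultiQC (1.7), quantified them with Salmon (0.14.0) on Rnor_6.0 and normalized them with DESeq2 (1.25.10). The deposited signal is a table of normalized counts, 1 column per library, and all columns matched a sample. How transcripts were summed to genes is not given in the sources used here, and reads shared by paralogs such as the neuroligins are split by estimation. In every library 100% of values were whole multiples of the value of 1 read (tolerance 0.001), so reads were recovered by division.

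Genes non-zero in at least 50% of libraries were tested with limma (3.58.1) in R (4.3.3) on log2(normalized count + 1), with 1 mean per group, all 20 libraries in 1 fit and a variance trend. Fold changes on this scale understate those of low genes. Tests were two-sided with Benjamini-Hochberg adjustment over 15802 genes and a threshold of 0.05. Against si-Ctrl, limma called 2109 genes for si-P1, 328 for si-P2 and 752 for both siRNAs. The file holds no raw counts, so limma took the place of the study's DESeq2. On recovered reads edgeR (4.0.16) called 2027, 327 and 758 and DESeq2 (1.42.0) 2473, 820 and 1200. Other alternatives were equal library totals, quantile or TMM scaling, pseudocounts of 0.5 and 5, other filters, no trend, only the groups compared, a replicate block, untransfected controls and each library left out. Scripts were tested on simulated data.

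Replicate numbers have no stated meaning. Over 11698 genes of a mean of at least 50, deviations of same-numbered libraries from their group means correlated at 0.111 to 0.559 for si-P1 and si-Ctrl, 0.261 to 0.420 for si-P1 and si-P2, 0.210 to 0.526 for si-P1+2 and si-P1 and 0.154 to 0.437 for si-Ctrl and untransfected cells. All of these exceed 0.1, so the numbers may pair the libraries in these comparisons. The main tests were nevertheless fitted without the block, which served only as an alternative setting. With the block, all-gene counts were 3400, 3724, 93 and 207 in place of 2109, 2325, 7 and 14. The pairs of si-P2 (from −0.167) and si-P1+2 (from −0.0275) with si-Ctrl did not all exceed 0.1. Over all 15802 tested genes, low ones included, the lowest correlations were smaller (0.0183, 0.0932, 0.120 and 0.0766 in the same order), and all pairs exceeded 0.1 for si-P1+2 and si-P1 alone. The restriction to the higher genes was chosen after seeing the data.

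The 7 genes and the lists were chosen with earlier results of these data known. Named from each list were up to 3 called genes with the largest absolute fold change and a mean of at least 50, in each comparison against si-Ctrl, and for each member the 3 genes of highest correlation. Some genes that this rule or the lists hold are not reported here. Promoters are from RefSeq (GRCr8), which matched 3 of the 7 genes, *Nlgn1*, *Nlgn2* and *Nlgn3*.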

Additional observations from a re-analysis of the deposited data

Results flagged for a closer look

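*Nlgn2* in si-P2 replicate 4 stood far from the other libraries of its group, at 1855 normalized counts against 2129.8 to 2158 in the other 3. It was the 1 such case among 35 groups of 4 values, and chance alone gives about 1 in 20. The effect of the *Piezo1* siRNA differed from that of the *Piezo2* siRNA for *Cbln1*, by 0.84 on the log2 scale (adjusted p = 5.91e-05, limma), with all 4 si-P1 libraries above all 4 si-P2 libraries. It also differed for *Nlgn1*, by 0.95 (adjusted p = 0.00258, limma), again with all 4 above all 4.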

How the results depend on the processing

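The si-P1 calls of *Nlgn1*, *Cbln1* and *Cadm1* kept their direction in all 21 alternatives each. The si-P1 call of *Cadm1* was lost with untransfected cells as controls (adjusted p = 0.0530, limma), where 2857 of all genes were called. Counts of the 7 genes called also moved as follows. With only the libraries of the groups compared they were 1 in place of 3 in si-P1, 0 in place of 1 in si-P1+2 and 4 in place of 2 in si-P1 against si-P2. Of all 15802 genes, 593, 69 and 4072 were called there in the same order, in place of 2109, 752 and 2325. In si-P1+2 quantile normalization gave 0 and DESeq2 2, beside 713 and 1200 of all genes. In si-P1+2 against si-P1 DESeq2 gave 2 in place of 0, beside 62 of all genes. Leaving out single libraries gave 0 to 1 in si-P2, in si-P1+2 and in the interaction, whose alternatives, like those of the lists, were chosen after seeing the data. All-gene counts in those fits were 100 to 765, 434 to 2148 and 0 to 17.

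With the replicate number as a block, the counts were 2 in si-P1+2 and 5 in si-P1 against si-P2, beside 1788 and 3724 of all 15802 genes. In si-P1+2 the same-numbered pairs with si-Ctrl did not all correlate above 0.1, so whether the numbers pair these libraries is not known. It changed no other call of a member.

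Sign changes occurred only in values that did not pass the test. With equal totals these were *Nlgn2* in si-P1 (0.0344), *Nrxn2* in si-P1+2 (0.0096), *Cbln1* in si-Ctrl against untransfected cells (−0.0365), and *Nlgn3* (−0.0292) and *Nrxn2* (−0.0059) in the interaction. With quantile normalization they were *Nlgn3* (−0.0465) and *Nlgn2* (0.0030) in si-P1, *Cbln1* (−0.0431) and *Nlgn1* (−0.0033) in si-P2 and *Nrxn2* in si-P1+2 (0.0254). Untransfected controls gave −0.0643 for *Nlgn3* in si-P1 and 0.0532 for *Nrxn2* in si-P1+2, and a pseudocount of 0.5 gave −0.14 for *Nrxn3* in si-Ctrl against untransfected cells. The cause was not tested. With single libraries left out, *Nlgn3* ran from −0.0644 to 0.17, *Nlgn2* from −0.10 to 0.0688 and *Nrxn2* from −0.0031 to 0.12 in si-P1. In si-P2 *Cbln1* ran from −0.0622 to 0.17, *Nlgn1* from −0.16 to 0.23 and *Nrxn3* from −1.32 to 0.22. In si-P1+2 *Nlgn2* ran from −0.14 to 0.0313 and *Nrxn2* from −0.0706 to 0.0513. In si-P1+2 against si-P1 *Nlgn2* ran from −0.0962 to 0.0377 and *Nrxn3* from −0.20 to 0.76. In si-Ctrl against untransfected cells *Cbln1* ran from −0.15 to 0.0834, *Nlgn3* from −0.23 to 0.0001, *Nlgn2* from −0.14 to 0.0272, *Nlgn1* from −0.22 to 0.16 and *Nrxn3* from −0.70 to 0.85. In the interaction *Nlgn3* ran from −0.11 to 0.13 and *Nrxn2* from −0.0219 to 0.10. *Nrxn3* has no value under a filter on a mean of at least 10, and depth limits what can be said of it.

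Over all genes, si-P1 against si-Ctrl gave 593 calls with only these groups and 3820 without si-Ctrl replicate 3, in place of 2109. The other ranges were 5 to 1367 (si-P2), 69 to 2148 (si-P1+2), 0 to 207 (si-Ctrl against untransfected), 1 to 93 (si-P1+2 against si-P1), 1556 to 4072 (si-P1 against si-P2) and 0 to 174 (interaction). With equal totals the si-P1 calls against si-Ctrl were 1374 higher and 741 lower, in place of 1117 and 992.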
